A study of Bos taurus with 9 samples.

Results

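The let-7 and miR-98 family was described in extracellular vesicles (EVs) of bovine follicular fluid, over 9 small RNA libraries. Its members were the 13 loci on the study's list of known and homologous miRNA whose bovine name begins with let-7 or is miR-98, on either arm of the hairpin. These 13 loci stood among 249 known and homologous loci (204 known and 45 homologous), called the set here, and among 101889 deposited loci. Each library held the EV RNA of 1 pool of fluid aspirated from untreated ovaries of abattoir cows, with 3 pools from small (3–5 mm), 3 from medium (6–9 mm) and 3 from large (>9 mm) follicles. The pools are samples 1, 2 and 4 of the small size, 5, 6 and 8 of the medium size and 10, 11 and 12 of the large size. A pool mixes healthy and atretic follicles of many cows whose breed, age and cycle stage are not given, and its EVs can come from any cell that releases them into the fluid. The 3 sizes were aspirated at each of 3 independent collections, but which pools share a collection is not given, so differences between collections stay within the spread.

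let-7 was first found as a switch of developmental timing in the worm and is one of the most conserved miRNA families of animals. Its members share the seed, the bases near the 5′ end that pair with targets, and repress messenger RNAs of growth and cell cycle genes such as RAS and HMGA2. LIN28 blocks the processing of most let-7 precursors, and the 5p arm of the hairpin is as a rule the guide that is loaded into Argonaute, while the 3p arm is the passenger strand. In mammals some let-7 hairpins lie in clusters with miR-99 or miR-100 and miR-125. In the ovary, let-7 miRNAs are among the abundant miRNAs of granulosa cells, the cells that line the follicle and surround the fluid.

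The 13 loci carried 10 names and came from 12 hairpins on 7 chromosomes (UMD3.1). All were mature arms of miRNA genes, and 12 of them were 22 bases long. Only let-7b had 23 bases. let-7a-5p had 3 loci, on chromosome 5 from 117119388 to 117119409 (plus strand, hairpin gene MIRLET7A-3), on chromosome 8 from 86884877 to 86884898 (plus strand, MIRLET7A-1) and on chromosome 15 from 33347615 to 33347636 (minus strand, MIRLET7A-2). let-7f had a pair of loci, on chromosome X from 96383586 to 96383607 (minus strand, MIRLET7F-2) and on chromosome 8 from 86885231 to 86885252 (plus strand, MIRLET7F-1). Several hairpins were neighbours. On chromosome 5, let-7b (117120190 to 117120212, plus strand) began 802 bases after let-7a-5p, and let-7a-3p (117119436 to 117119457), the single 3p arm among the members, lay between them in the hairpin of let-7a-5p. On chromosome 8, let-7f began 354 bases after let-7a-5p and let-7d (86887438 to 86887459, plus strand) 2207 bases after let-7f. On chromosome X, miR-98 (96382704 to 96382725, minus strand) lay 882 bases from let-7f.

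The remaining members came from hairpins of their own. let-7c was on chromosome 1 (19930511 to 19930532, minus strand), with miR-99a-5p 721 bases away. let-7e was on chromosome 18 (58015043 to 58015064, plus strand), with miR-99b 169 bases and miR-125a 506 bases away. let-7g was on chromosome 22 (49189344 to 49189365, plus strand). let-7i was on chromosome 5 (51209138 to 51209159, minus strand), far from let-7b. All 13 loci matched a hairpin gene of the same chromosome in RefSeq by name.

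The deposited values are raw counts of reads on each locus. The counts of a library summed to between 8941598 and 14664460, those on the set to between 146617 and 3394554, and those on the family to between 28114 and 449865. The gonadal miRNA miR-202 (both arms summed) had between 11578 and 34277 normalized counts in the 9 libraries. The blood cell miRNAs miR-451, miR-486, miR-142-5p and miR-150 summed to 490 to 2492 normalized counts in small, 1534 to 2932 in medium and 7144 to 15499 in large pools, and none of the 4 was at 0 in any library. Normalized counts are counts relative to the summed count of the set (CPM) after TMM scaling, a scaling that sets the bulk of the 249 loci equal between libraries. Since the members were 22 or 23 bases long, their levels were compared without division by length. How well each miRNA enters a library was not measured, so comparisons between members are comparisons of counts.

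let-7f was the member with the most counts at every follicle size. Its summed normalized counts were 48868, 94049.7 and 35297 in small follicles 1, 2 and 4, with 59057, 99398 and 45752 in medium follicles 5, 6 and 8, and 82371, 86277.5 and 30570.1 in large pools 10, 11 and 12. The ranges of the 3 sizes overlapped, and sample 12 was the lowest of the 9. The mean ± SD (n = 3 each) was 59405 ± 30761 at the small, 68069 ± 27935 at the medium and 66406 ± 31096 at the large size. By mean, let-7a-5p, the sum of 3 loci, was the next name in the order at each size. In small pool 1, however, let-7a-5p stood below let-7c (23436), let-7i (18411) and let-7b (17937). It had 16283, 32603 and 17691 normalized counts in small, 26250.5 (5), 46798 (6) and 23083 (8) in medium, and 35965, 58911 and 24408 in large pools. Each large pool was above small pools 1 and 4, and small pool 2 was above large pool 12, so the ranges overlapped.

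**Figure D1:**
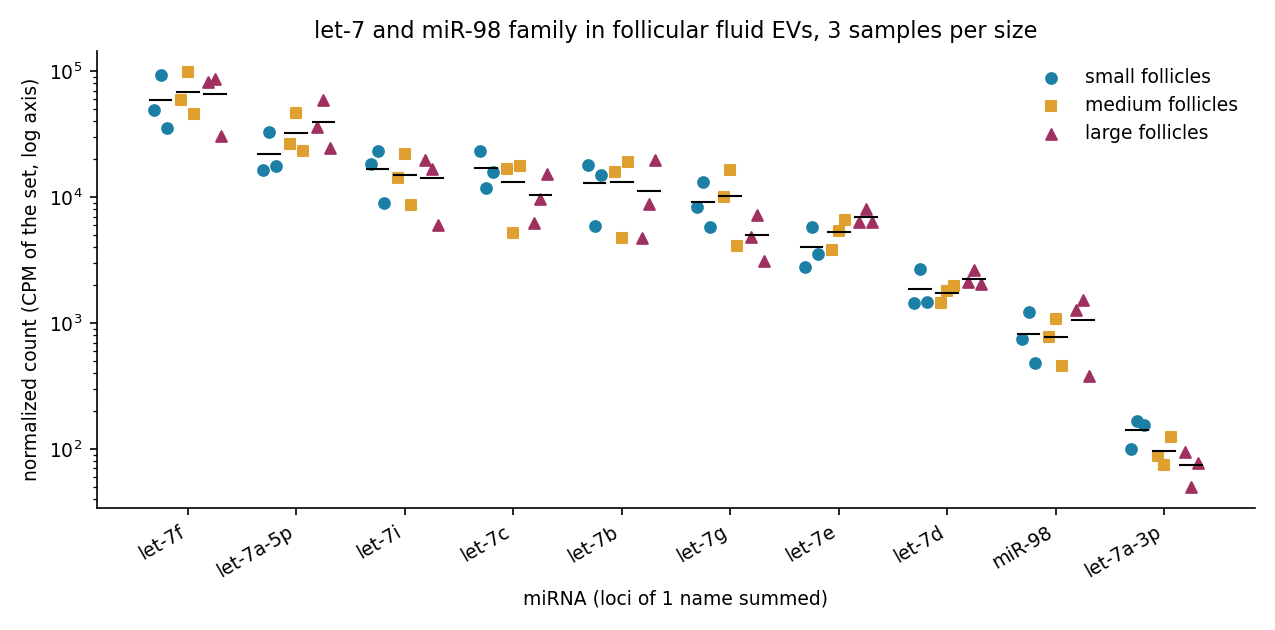
Normalized counts (CPM of the set, log axis) of the 10 family names in the 9 samples, with loci of 1 name summed; circles are small, squares medium and triangles large follicles, and the black lines are means of 3 samples. let-7f was highest and let-7a-3p lowest at each size, and the 3 sizes overlapped for most names.

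The copies of 1 name had nearly the same counts. Each of the 3 let-7a-5p loci took from 32.4% to 34.1% of the let-7a-5p counts in every sample, with totals of 76608, 77298 and 76739 over the 9 samples. The let-7f locus on chromosome X took from 52.6% to 54.1% of the let-7f counts and the locus on chromosome 8 the rest, with totals of 286565 and 254119. The mature sequences of such copies are the same by name, so reads cannot be placed on 1 copy, and whether a read was shared among copies or counted at each is not stated. The 13 loci are therefore fewer than 13 independent measurements, and a summed level may hold a read more than once. Per locus, let-7f on chromosome X stayed highest (31329 ± 16152 in small follicles, SD, n = 3), while let-7a-5p on chromosome 5 (7335 ± 2970 in small follicles, SD, n = 3) stood below let-7c, let-7i, let-7b and let-7g at that size. In large follicles the same let-7a-5p locus averaged 13323 ± 5876 (SD, n = 3), above the means of let-7c, let-7b and let-7g.

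In the middle of the order, neighbours could not be told apart. In small follicles let-7c averaged 16985 ± 5925 (SD, n = 3), let-7i 16810.4 ± 7228 (SD, n = 3) and let-7b 12972 ± 6285 (SD, n = 3) normalized counts, with overlapping ranges. let-7g followed at 9070.4 ± 3751 (SD, n = 3) and let-7e at 4051 ± 1588 (SD, n = 3). let-7d and miR-98 were the lowest 5p arms at every size, with ranges that did not overlap those of the name above. In small follicles let-7d averaged 1858 ± 698 (SD, n = 3) and miR-98 819 ± 377 (SD, n = 3). In large follicles the order of let-7e and let-7g was exchanged, with 6932 ± 1018 (SD, n = 3) for let-7e and 5037 ± 2048 (SD, n = 3) for let-7g, and let-7e was above let-7g in 3 of 3 samples although their ranges overlapped.

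Within the set, no member of the family was called between follicle sizes. A locus was called at a false discovery rate (FDR) under 0.05 in edgeR's quasi-likelihood test, with Benjamini-Hochberg adjustment over the 249 loci. For large versus small follicles 0 of 13 loci were called, where 42.2% of the set was (105 of 249), and 0 of 13 had an unadjusted p under 0.05, against 50.2% of the set. edgeR's exact test also called 0, and DESeq2 called 1, let-7e. For medium versus small follicles 0 of 13 were called beside 0.0% of the set, and for large versus medium follicles 0 of 13 beside 10.4%. Any difference among the 3 sizes was called in 0 of 13 loci and in 33.7% of the set. At an unadjusted p under 0.05 these 3 comparisons also had 0 of 13, against 17.7%, 32.1% and 47.0% of the set, and edgeR's exact test and DESeq2 called 0 where medium follicles were compared with small and large with medium. Normalized counts of large and small follicles did not overlap for 2 of the 13 loci, let-7e and let-7a-3p, against 53.0% of the set.

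The median log2 fold change of the 13 loci, large versus small, was 0.18, and that of the 249 loci was −0.18. Single loci ran from −0.90 for let-7a-3p to 0.86 for let-7a-5p on chromosome 5, with 8 above 0 and 5 below. The 95% intervals of the 13 log2 fold changes reached from −1.96 to 1.81 in all, so 3 pools a size left room for changes of more than 3-fold in some members. Medium versus small, the values ran from −0.54 (let-7a-3p) to 0.55 (let-7a-5p on chromosome 5), and the counts of 0 loci did not overlap, against 28.5% of the set. Large versus medium, they ran from −1.01 (let-7g) to 0.45 (miR-98), and 1 locus, let-7d, did not overlap, against 36.1%.

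let-7e and let-7a-5p had the highest log2 fold changes, large versus small, and did not pass the test. let-7e had 2802, 5839 and 3513 normalized counts in small, 3802 (5), 5406 (6) and 6579 (8) in medium, and 6291, 8106 and 6399 in large pools. All 3 large pools were above all 3 small pools, and small pool 2 was far above the other small pools. Its log2 fold change, large versus small, was 0.77 ± 0.36 (SE, n = 3 and 3, edgeR FDR = 0.102), with a 95% interval from −0.01 to 1.56. Without small pool 2 the log2 fold change was 1.13 (FDR = 0.0308), and DESeq2 gave 0.87 with an adjusted p of 0.0293 on all 9 samples. With each sample left out in turn, let-7e ranged from 0.57 to 1.13, and its edgeR FDR reached 0.31. It was also not called by edgeR's exact test or by the other scalings within the set. let-7a-5p had log2 fold changes of 0.86 ± 0.44 (SE, FDR = 0.133) on chromosome 5, 0.83 (FDR = 0.139) on chromosome 8 and 0.83 (FDR = 0.152) on chromosome 15, which are not independent of each other.

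let-7g and let-7c, next to let-7a-3p, had the lowest log2 fold changes and did not pass either. let-7g had 8297, 13148 and 5766 normalized counts in small, 10036.0 (5), 16307 (6) and 4106 (8) in medium, and 4807, 7189.8 and 3113 in large pools. Sample 11 stood above small pool 4 and medium pool 8, so the sizes overlapped, and the log2 fold change, large versus small, was −0.85 ± 0.51 (SE, FDR = 0.187). let-7c had 23436, 11786 and 15733 in small, 16867 (5), 5155 (6) and 17534 (8) in medium, and 6279.6, 9634 and 15308 in large pools. Pools 6 and 10 were the lowest of the 9, and the log2 fold change was −0.71 ± 0.49 (SE, FDR = 0.26).

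let-7f, let-7i, let-7b, let-7d and miR-98 had log2 fold changes closer to 0. They were 0.18 (let-7f on chromosome X), 0.13 (let-7f on chromosome 8), −0.25 (let-7i), −0.22 (let-7b), 0.28 (let-7d) and 0.36 (miR-98), large versus small, with FDR values from 0.513 to 0.85. let-7b was the member with the widest spread between pools of 1 size, with a pooled within-size SD of 1.00 on the log2 scale. let-7d had the narrowest, at 0.34. The median SD was 0.72 over the 13 loci and 0.55 over the 249 loci of the set.

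The family took 13.3%, 17.8% and 10.5% of the set's counts in small, 17.3% (5), 20.3% (6) and 12.7% (8) in medium, and 19.1%, 19.2% and 9.25% in large pools. Each size held values from under 14% to over 17%, and sample 12 was the lowest of the 9. The means were 13.8% ± 3.70, 16.8% ± 3.86 and 15.8% ± 5.69 (SD, n = 3 each), without a detectable trend with size (exact permutation test over 1680 arrangements of the 9 samples, two-sided, p = 0.577). Exact binomial 95% intervals of these shares were at most 0.202 percentage points to each side and cover counting error only, since PCR reads are not independent molecules.

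Out of all deposited counts, the family fell with follicle size. It took 3.07%, 2.50% and 2.81% of all counts in small, 0.671% (5), 0.761% (6) and 1.42% (8) in medium, and 0.301%, 0.275% and 0.523% in large pools. No value of 1 size reached those of another. The means were 2.79% ± 0.284, 0.951% ± 0.408 and 0.366% ± 0.136 (SD, n = 3 each), and the slope was −1.21 percentage points per size step (two-sided exact permutation test, p = 0.00119, the smallest p that the design can give). For large versus small follicles alone the exact permutation p was 0.1, the lowest that 3 against 3 samples allow. The whole set fell as well, from 14.1% to 26.9% of all counts at the small size through 3.75% to 11.2% at the medium size to 1.43% to 5.65% at the large size (exact permutation p = 0.00357). A share does not tell fewer family molecules from more of other RNA, and in pooled fluid fewer vesicles of a cell type and less RNA per vesicle cannot be told apart.

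**Figure D2:**
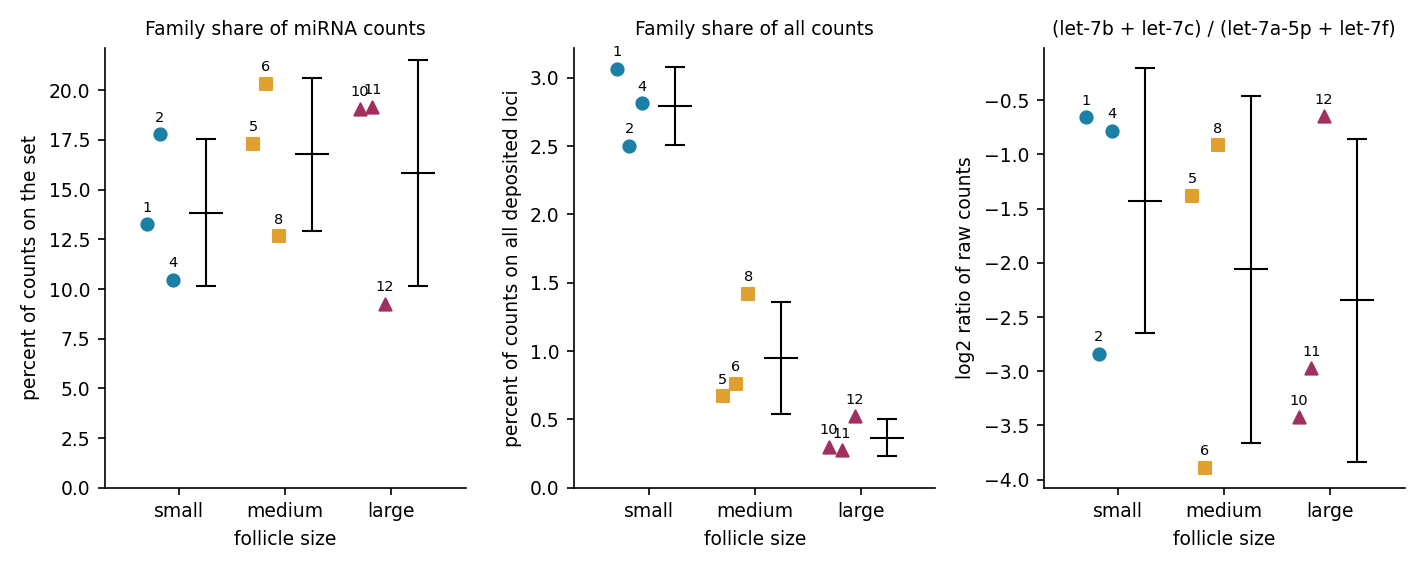
Family share of the counts on the set (left, percent), family share of the counts on all deposited loci (middle, percent), and log2 ratio of let-7b plus let-7c to let-7a-5p plus let-7f raw counts (right), per follicle size. Points are samples with their numbers, and bars are mean ± SD of 3 samples. The middle share fell from 2.79% to 0.366%, while the other panels overlapped between sizes.

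The sign of 8 of the 13 fold changes, large versus small, depended on the scaling. With each library scaled to its count on all deposited loci, all 13 loci were called lower in large than in small follicles, where 76.7% of the set was (191 of 249). Their log2 fold changes ran from −2.12 (let-7e) to −3.92 (let-7g), with FDR values from 0.00045 to 0.0236. The median of the 13 loci was −2.92 and that of the set −3.06. Between medium and small follicles, 3 loci were called lower on this scale, let-7g, let-7i and miR-98, against 23.7% of the set. On this scale let-7e and let-7a-5p were the least lowered and let-7g and let-7a-3p the most. The scales differ only by a factor per library on the same counts. The order of the members was therefore nearly fixed, and its likeness on both scales is no separate result.

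**Figure D3:**
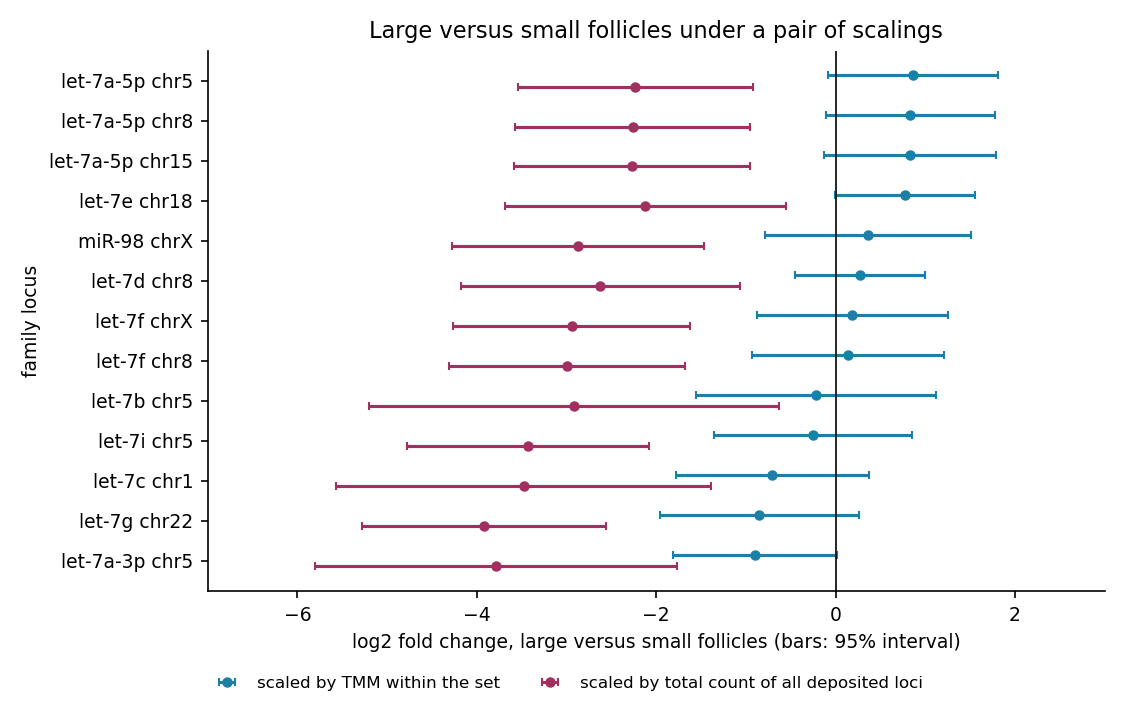
Log2 fold changes, large versus small follicles, of the 13 family loci with 95% intervals, scaled by TMM within the set (blue) and by the library's count on all deposited loci (red). All 13 intervals include 0 within the set, and all 13 lie below 0 on the other scale, where the set's median is −3.06.

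The makeup of the family varied between pools of 1 size. let-7f made up from 28.3% to 50.3% of the family's counts and let-7a-5p from 11.8% to 29.5%. let-7b ranged from 2.32% (pool 6) to 18.3% (pool 12), a 7.92-fold range, and let-7c from 2.54% (pool 6) to 16.9% (pool 1), a 6.66-fold range. let-7f, in contrast, had a 1.78-fold range. The share of let-7a-5p averaged 15.3% ± 3.05 in small, 19.6% ± 3.00 in medium and 24.7% ± 4.18 in large pools (SD, n = 3 each), with an exact permutation p of 0.00714 for the trend and 0.0714 after Benjamini-Hochberg adjustment over the 10 names. let-7g averaged 6.15%, 6.01% and 3.14%, with an adjusted exact permutation p of 0.214. No name passed the adjusted test.

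let-7b and let-7c varied together and apart from let-7a-5p and let-7f. The log2 ratio of let-7b plus let-7c to let-7a-5p plus let-7f was −0.66, −2.84 and −0.78 in small, −1.38 (5), −3.89 (6) and −0.91 (8) in medium, and −3.42, −2.97 and −0.65 in large pools. It was low in pools 2, 6, 10 and 11 and high in the other 5, so each size held both kinds of pool. The means were −1.43 ± 1.23, −2.06 ± 1.60 and −2.35 ± 1.49 (SD, n = 3 each), and a trend over the sizes was not detectable (two-sided exact permutation p = 0.421). A ratio within a sample does not depend on scaling. Some other measures also differed between these pools and the rest of their size, in either direction, and some did not. The set took 14.1% of all counts in pool 2, against 23.1% and 26.9% in the other small pools, 3.75% in pool 6 against 3.88% and 11.2%, and 1.58% and 1.43% in pools 10 and 11 against 5.65% in pool 12. miR-143, a marker of smooth muscle and fibroblasts, had 5667 normalized counts in pool 2 against 21963 and 20346, 2399 in pool 6 against 7419.7 and 5709, and 5058 and 4582 in pools 10 and 11 against 10287. The summed blood cell miRNAs, mostly miR-486, were higher in pool 2 (2492 against 814 and 490) and in pool 6 (2932 against 1540.0 and 1534). They were lower in pools 10 and 11 (7144 and 10529) than in pool 12 (15499). In pools 2 and 6 miR-486 and miR-451 were higher, but the other members of the list were not. In pool 2 miR-142-5p (163 against 239 and 242) and miR-150 (6.8 against 8.3 and 9.1) were lower. In pool 6 miR-150 was lower (2.3 against 42.2 and 49.7) and miR-142-5p nearly the same (223 against 222 and 215). miR-126-5p, a marker of endothelium, lay between the other pools of the size in pool 2 (124 against 116 and 242) and in pool 6 (103 against 56.8 and 120). So did miR-202, both arms summed, in pool 2 (18871 against 17452 and 19062) and in pool 6 (18439 against 15395 and 26431). In pools 10 and 11 miR-126-5p and miR-202 were lower than in pool 12. The part of all these measures in the ratio was not tested.

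Pairs of names kept constant ratios to different degrees. As a description over the 9 libraries, which share depth and preparation between the names, the SD of the log2 ratio of raw counts was 0.25 for let-7f to miR-98, a 1.77-fold range. It was 0.27 for let-7d to let-7e, 0.30 for let-7f to let-7i and 0.38 for let-7b to let-7c. For let-7b to let-7f it was 1.47, a 13.7-fold range, and for let-7b to miR-98 1.53. Over the 14 pairs of let-7b or let-7c with another 5p name the SD ran from 0.93 to 1.53 (median 1.27), and over the 21 pairs among the other 7 names from 0.25 to 1.04 (median 0.56).

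Neighbours on a chromosome did not always keep the most constant ratios. let-7a-5p and let-7b, whose hairpins on chromosome 5 begin 802 bases apart, had an SD of 1.39, with let-7a-5p summed over its 3 loci. let-7c and miR-99a-5p, 721 bases apart on chromosome 1, had an SD of 0.92. let-7d and miR-99a-5p, on chromosomes 8 and 1, had an SD of 0.27, and let-7b and let-7c are also on different chromosomes. let-7e and miR-125a, 506 bases apart on chromosome 18, had an SD of 0.46. let-7f and miR-98 had the lowest SD among the family names. miR-98 neighbours the let-7f locus of chromosome X, but let-7f was summed over its loci on chromosomes X and 8.

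**Figure D4:**
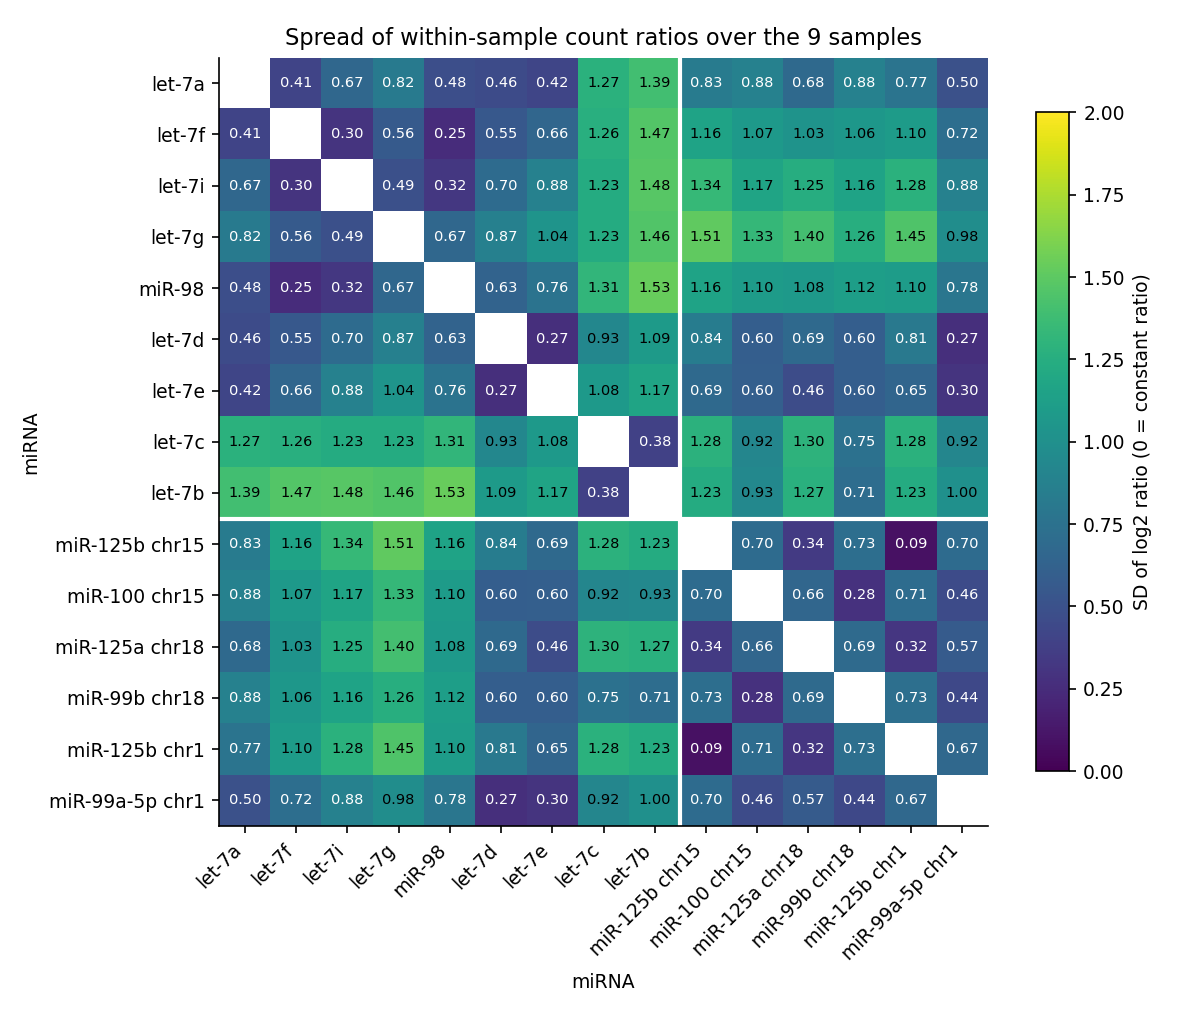
SD over the 9 samples of the log2 ratio of raw counts for each pair of 9 family 5p names and 6 miR-99, miR-100 and miR-125 loci near them (white lines part the family from these); colour and number both give the SD, and 0 would be a constant ratio. let-7b and let-7c vary by 0.38 against each other and by 0.93 to 1.53 against the other family names.

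Within the family, by the correlation of log2 normalized counts given as a description over 9 libraries, let-7f was most like miR-98 (r = 0.939) and let-7b most like let-7c (r = 0.903). Outside it, among the 221 loci left in the set after the 28 family, partner-arm and neighbouring miR-99, miR-100 and miR-125 loci were set aside, let-7f was most like miR-26a on chromosome 5 (r = 0.918, rho = 0.883), miR-26a on chromosome 22 (r = 0.917) and miR-30a-5p on chromosome 9 (r = 0.909). The pair of miR-26a loci are copies of 1 name and count as 1. Among the same 221 loci let-7b was most like the miR-202 arm named bta-miR-202 on chromosome 26 (r = 0.890). This arm had 3746, 2201 and 5229 normalized counts in small, 3586 (5), 1895 (6) and 4319.5 (8) in medium, and 2459, 3687 and 4455 in large pools. The other arm, chi-miR-202-3p, had more counts and did not follow let-7b throughout. It was highest of the small pools in pool 2 (16670), where let-7b was lowest (5905). In medium and large follicles chi-miR-202-3p and let-7b were both highest in pools 8 and 12. After bta-miR-202 came a locus named after mouse miR-1983 (r = 0.850) and miR-6119-3p (r = 0.849), both with no more than 73.3 normalized counts in any sample.

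The passenger arms had far fewer counts than the guides in most hairpins. Of the 12 hairpins, 11 had a deposited locus on the other arm, and in all 11 the 5p arm had more counts over the 9 samples. The lead of the 5p arm was smallest for let-7d, with 17658 counts on 5p and 9046 on 3p, and largest for let-7c, with 176699 on 5p and 78 on 3p. Apart from let-7a-3p, 5 other 3p arms were in the set, named after goat (chi), rat (rno) or human (hsa) miRNA. For large versus small follicles, 2 of these 5 were called, both higher in large follicles, where 17.7% of the set was called higher.

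The 3p arm of let-7b, chi-let-7b-3p, rose in large follicles, and its guide was not called. It had 27.7, 22.1 and 74.6 normalized counts in small, 55.0 (5), 61.5 (6) and 80.9 (8) in medium, and 117, 227 and 189 in large pools. All large pools were above all others, and the log2 fold change, large versus small, was 2.09 ± 0.52 (SE, FDR = 0.00893). It rested on as few as 21 raw counts in pool 10. The 3p arm of let-7d, chi-let-7d-3p, had 406, 297 and 933 in small, 944 (5), 652 (6) and 1532 (8) in medium, and 1495, 1506 and 3029.8 in large pools. Its log2 fold change was 1.88 ± 0.50 (SE, FDR = 0.0116), and without small pool 1 it was 1.71 (FDR = 0.0538). Without small pool 4, the highest small pool for both 3p arms, the log2 fold changes were 2.93 for chi-let-7b-3p and 2.63 for chi-let-7d-3p. Scaled to all deposited counts, these 3p arms had log2 fold changes of −1.01 (FDR = 0.308) and −0.97 (FDR = 0.349). The summed blood cell miRNAs, mostly miR-486, were also highest in the large pools, from 7144 to 15499 normalized counts against 490 to 2492 in small pools. miR-451 alone overlapped between sizes, with 173 in large pool 10, 183 in small pool 2 and 219 in medium pool 6. The part of the blood cell miRNAs in the 3p differences was not tested. The other 3 of the 5 3p arms had FDR values from 0.116 to 0.425.

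The share of the 3p arm in the counts on both arms, which needs no scaling, was higher in large follicles for some hairpins and lower for others. The trend passed the adjusted test in none with all 9 samples. For the let-7a and let-7f hairpins the 5p locus may hold reads of other copies of the name. Their values are therefore not shares of a single hairpin. For let-7b the 3p arm took 0.154%, 0.374% and 0.492% of both arms in small, 0.344% (5), 1.29% (6) and 0.423% (8) in medium, and 2.41%, 2.50% and 0.946% in large pools. All large pools were above all small pools, and the geometric mean of the 3p to 5p ratio was 5.95-fold higher in large than in small follicles (exact permutation test of the trend, two-sided, p = 0.0131). For let-7d it took 21.8%, 10.0% and 39.0% in small, 39.6% (5), 26.6% (6) and 43.9% (8) in medium, and 41.6%, 36.6% and 59.8% in large pools. Sample 12 was the only library in which the let-7d 3p arm had more counts than the 5p arm, and the ratio was 3.13-fold higher in large than in small follicles (exact permutation p = 0.0405). Without small pool 2, the lowest, the let-7d slope was 0.51 in place of 0.82 on the log2 scale per size step. For let-7e the 3p arm took from 0.421% to 0.903% in small, 1.05% (5), 0.294% (6) and 1.23% (8) in medium, and from 1.36% to 2.76% in large follicles. Pool 6 was the lowest of the 9, on 7 raw counts. The let-7e ratio was 2.97-fold higher in large than in small follicles (exact permutation p of the trend = 0.0488).

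Both let-7a hairpins with a 3p locus had a lower 3p share in large follicles. On chromosome 5, let-7a-3p took 1.83%, 1.51% and 2.58% of both arms in small, 0.990% (5), 0.477% (6) and 1.60% (8) in medium, and 0.783%, 0.251% and 0.939% in large pools. All large pools were below all small pools, with a ratio of 0.292 of that in small follicles (exact permutation p = 0.0262). let-7a-3p had only 17 raw counts in pool 10 and 7 in pool 11. On chromosome 8, the 3p arm named after rat let-7a-1-3p gave 0.349 (exact permutation p = 0.0274), with 14 and 10 raw counts in pools 10 and 11. These 2 rest on different 3p loci but on 5p loci that may share reads. For let-7f on chromosome X, let-7f on chromosome 8 and miR-98, the trend had exact permutation p values of 0.419, 0.831 and 0.485. After Benjamini-Hochberg adjustment over the 8 hairpins tested, the lowest exact permutation p was 0.073, so no hairpin passed with all 9 samples. Without medium pool 6 the adjusted exact permutation p was 0.0429 for let-7a on chromosome 5, 0.0286 for let-7e and 0.0476 for let-7b. With any other sample left out none of these passed, and the adjusted exact permutation p rose to as much as 0.16, 0.226 and 0.143.

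**Figure D5:**
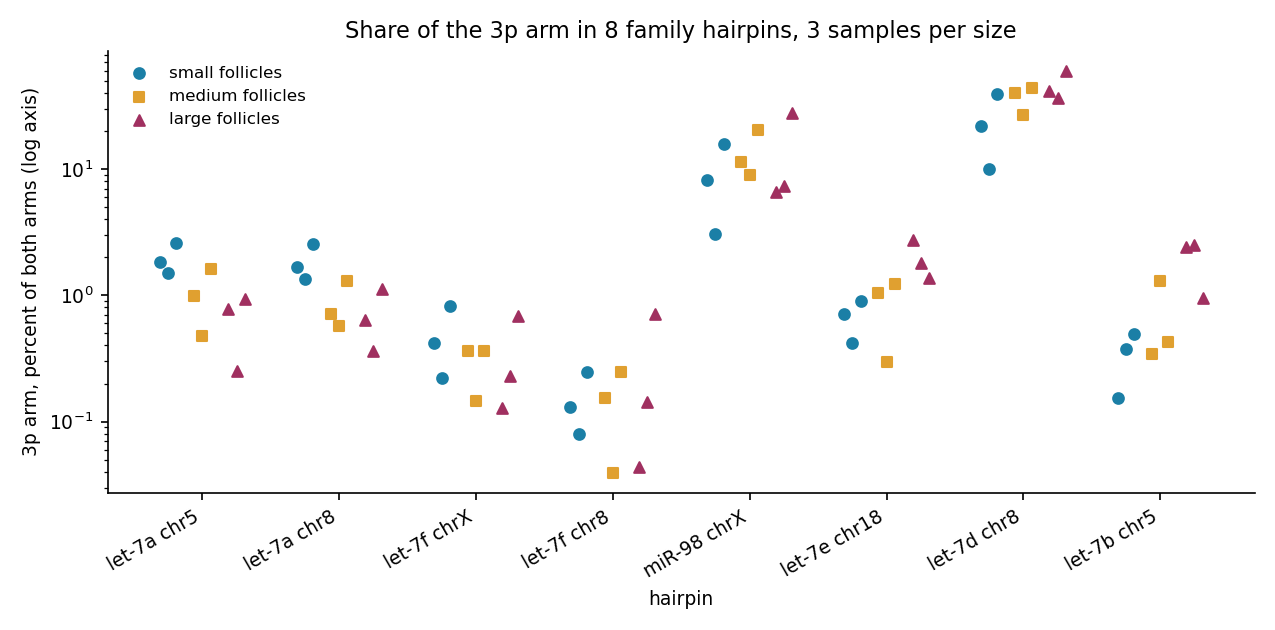
Share of the 3p arm in the raw counts of both arms (percent, log axis) for 8 hairpins of the family in the 9 samples; circles are small, squares medium and triangles large follicles. Small and large pools do not overlap for let-7a on chromosomes 5 and 8, where large pools are lower, and for let-7e and let-7b, where they are higher, and with all 9 samples no trend passed adjustment over the 8 hairpins. The 5p counts of the let-7a and let-7f hairpins may hold reads of other copies of the name.

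At low depth some 3p arms were not seen. let-7i-3p had 374 counts over the 9 samples and 0 in pool 10, where 3 counts, taken as the limit, would be 0.0844% of both arms. That limit lies below the shares of the 3 small pools, 0.230%, 0.1031% and 0.495%. The exact binomial interval of pool 10, however, reached 0.1037%, above the share of small pool 2. The share of pool 10 is therefore not told from that of small pool 2. Pools 11 and 12 had 0.0429% and 0.352%. let-7g-3p had 173 counts and 0 in pools 10 and 11, where the same limit of 3 counts is 0.348% and 0.296%. In small follicles let-7g-3p took 0.233%, 0.0971% and 0.315% of both arms, so the limits of pools 10 and 11 do not tell their shares from those of small follicles. In pool 12 the share was 0.621% on 11 counts, the highest of the 9, so the large pools did not run 1 way.

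Of 10 set loci of the miR-99, miR-100 and miR-125 families within 60000 bases of a let-7 locus, 3 were called for large versus small follicles, all higher in large follicles, against 17.7% of the set. They were the 5p arms of the miR-125 family, which share the ancestry of lin-4, the worm's other timing miRNA. miR-125b near let-7a-5p on chromosome 15 had 317, 329 and 359.5 normalized counts in small, 702, 444 and 651 in medium, and 920.2, 1719 and 1555 in large pools, a log2 fold change of 2.06 ± 0.35 (SE, FDR = 0.00114). All large pools were above all medium pools and these above all small pools. miR-125b near let-7c on chromosome 1, a copy of the same name, gave 2.00 ± 0.33 (SE, FDR = 0.001), and miR-125a near let-7e on chromosome 18 gave 1.78 ± 0.35 (SE, FDR = 0.00288). The summed blood cell miRNAs, mostly miR-486, were also highest in the large pools. miR-451 alone overlapped between sizes, with 173 in large pool 10 and 183 in small pool 2. The part of the blood cell miRNAs in these differences was not tested. Scaled to all deposited counts the 3 miR-125 loci had log2 fold changes of −0.86, −0.94 and −1.04, with FDR values from 0.208 to 0.317. The let-7 loci in the same clusters, let-7a-5p on chromosome 15, let-7c and let-7e, had 0.83, −0.71 and 0.77 within the set and were not called. The other 7 cluster loci, of miR-99, miR-100 and the 3p arms of miR-125, were not called, with FDR values from 0.109 to 0.988.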

How the data were processed

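Small RNA of EVs from 9 pools of follicular fluid had been sequenced after TruSeq library preparation from low amounts of RNA. The authors trimmed adapters, mapped reads with bwa (0.7.5a) to UMD3.1, merged the reads of all samples into loci, and deposited 1 table of raw read counts per locus, taken over the effective (high-density) region. The handling of multi-mapped reads is not given in the sources used here. Counts on the set were scaled by TMM and tested with edgeR 4.0.16 (quasi-likelihood test, 1 fit of the 3 sizes) in R 4.3.3 with limma 3.58.1, with Benjamini-Hochberg adjustment over 249 loci and a threshold of 0.05. A positive log2 fold change means higher in the first-named size. Shares and ratios used raw counts and exact permutation tests over size ranks (Python 3.11.15, scipy 1.17.1, numpy 2.4.6, pandas 2.3.3, figures by matplotlib 3.10.9). DESeq2 1.42.0 and edgeR's exact test were run as alternatives, with other scalings, filterByExpr, summed names, a fit of only the groups compared, and each sample left out in turn. The other arm of a hairpin was a deposited locus of the same strand within 90 bases of the member, with at least 100 counts over all samples, and no 0, for a trend test. Named loci were the 13 members, their other arms, set loci within 60000 bases, and the 3 most like let-7f and let-7b. Members, lists and tests were chosen with earlier results of these data known. Hairpin names came from RefSeq (ARS-UCD2.0), matched by name and chromosome, without its coordinates. The procedure was tested on simulated data. Mature sequences were not used here.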

Additional observations from a re-analysis of the deposited data

How the results depend on the processing

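The counts of called family loci, 0 of 13 in each comparison, changed mainly with a scaling that left the set. Scaled to the total of all deposited loci, 13 were called for large versus small follicles, 3 for medium versus small and 12 for any difference. By TMM over all deposited loci these were 13, 4 and 13. DESeq2 called 1 for large versus small. Leaving out each sample in turn gave 0 to 1 for large versus small (let-7e, without small pool 2) and 0 to 0 elsewhere. Under total count scaling the log2 fold changes, large versus small, turned to −2.24, −2.26 and −2.27 (let-7a-5p on chromosomes 5, 8 and 15), −2.12 (let-7e), −2.94 and −2.995 (let-7f on X and 8), −2.62 (let-7d) and −2.87 (miR-98). Under TMM over all loci they were −3.915, −3.94, −3.95, −3.74, −4.62, −4.67, −4.24 and −4.59 in the same order. For chi-let-7b-3p, chi-let-7d-3p, miR-125b on chromosomes 15 and 1, and miR-125a the values were −1.01, −0.97, −0.86, −0.94 and −1.04 by total count and −2.75, −2.64, −2.52, −2.59 and −2.66 by TMM over all loci. These reversals follow the median of the set, which moved from −0.18 to −3.06 and −4.71.

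Without 1 sample, log2 fold changes ranged from −0.055 to 0.68 (let-7f on X), −0.0936 to 0.64 (let-7f on 8), −0.58 to 0.11 (let-7i), −0.00472 to 0.77 (miR-98) and −0.93 to 0.15 (let-7b), so the signs of these 5 rest on single pools. Without the let-7a-5p and let-7f loci, the slope of the family share of the set turned from 1.00 to −0.51 percentage points per size step (p = 0.189, exact permutation test), and the cause was not tested. With each sample left out the slope ranged from 0.0699 (without small pool 4) to 2.66 (without large pool 12) and the lowest exact permutation p was 0.109. Slopes of the log2 3p to 5p ratio without 1 sample ranged from −1.07 to −0.63 (let-7a on chromosome 5), 0.61 to 0.95 (let-7e), 1.09 to 1.48 (let-7b), 0.51 to 1.09 (let-7d), −0.39 to 0.54 (let-7f on 8) and −0.0168 to 0.58 (miR-98). Without medium pool 6, let-7a on chromosome 5, let-7e and let-7b passed the test adjusted over the 8 hairpins. With any other sample left out they did not pass, with adjusted exact permutation p up to 0.16, 0.226 and 0.143. The slope of the family share of all counts stayed between −1.30 and −1.10, with p from 0.00179 to 0.00357 (exact permutation test). No paired analysis was possible because the sizes share no replicate numbers, and although they share collections, the collection of each pool is not given. The family had 28114 counts in the shallowest large pool, where some 3p arms had a count of 0.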
